A study of Mus musculus with 15 samples.

Results

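Adipocytes are a small part of the RNA of a muscle, and their transcripts were followed here in mouse quadriceps through 10 listed genes, out of 39179 genes in the count tables. The genes were the adipokines Adipoq, Lep, Retn and Cfd, the transcription factors Pparg and Cebpa, the fatty acid carrier Fabp4 and the lipid droplet proteins Plin1, Plin4 and Cidec. The list was given by name, with earlier results of these data known, and all 10 were found in the 15 libraries and passed the filter on low counts in each comparison. The mice were C57BL/6 and carried either 2 wild-type alleles of Mrps5 or, in the animals called V338Y, the V338Y mutation on both. Mrps5 encodes a protein of the small subunit of the mitochondrial ribosome, and the mutation was made as a knock-in to lower the accuracy of mitochondrial translation in the whole animal. At 3 mo of age the libraries came from 4 mice of each genotype, and at 19 mo from 3 wild-type mice and 4 V338Y mice. Mice are called by the number in their label.

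White adipocytes store triglyceride in a lipid droplet that is coated by perilipins and enlarged by CIDE proteins. PPARγ and C/EBPα drive and maintain the adipocyte programme, and many of the droplet and adipokine genes are among their targets. The adipokines are released into the blood: adiponectin and leptin act on metabolism and appetite, resistin on insulin action in mice, and adipsin (the product of Cfd) is complement factor D. Skeletal muscle holds adipocytes between its fibers and fascicles, and fat attached to the muscle can also be taken with it. Not every gene of the list is restricted to adipocytes. Plin4 is made in muscle fibers as well, and Fabp4 in capillary endothelium and macrophages.

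The libraries held 8250653 to 18968132 counts. Xist, the RNA of the inactive X chromosome, had 0 to 10 counts in every 3 mo mouse and 5296 to 8190 in every 19 mo mouse, while the 4 Y-linked genes Ddx3y, Uty, Kdm5d and Eif2s3y had 223 to 2967 counts at 3 mo and at most 1 at 19 mo. The RNA was thus that of males at 3 mo and of females at 19 mo, which goes against the sex that the methods give for the younger mice, so age and sex cannot be told apart in any comparison between ages. Mrps5 itself was at 23.7 ± 1.83 CPM (SD, n = 4) in wild-type and 25.7 ± 1.51 in V338Y animals at 3 mo, and at 17.7 ± 1.79 (n = 3) and 17.4 ± 1.64 (n = 4) at 19 mo. A change of a single amino acid need not alter the count of a gene, so these values do not check the genotype. CPM here are counts scaled to the library size after TMM normalization, and a value is given for each mouse in the order of the mouse numbers (1 to 4 at 3 mo, 2, 4 and 5 for wild-type and 2 to 5 for V338Y at 19 mo). The 8 myofiber markers summed to 68610 to 139200 CPM, the level of skeletal muscle. 2 libraries held the markers of other cells at levels far from their group. Wild-type mouse 1 at 3 mo had 328 CPM of the brown adipocyte gene Ucp1, against 37.0 in mouse 4 and 1.39 to 2.70 in the others of its group, and V338Y mouse 5 at 19 mo had a sum of 591 CPM over 7 neutrophil markers, against 4.11 to 27.2 in the others.

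All 10 are protein-coding genes, and the counts are of whole genes, over the exons of all their transcripts. In the GRCm38 annotation, Lep lies at chr6:29060220-29073877, Cidec at chr6:113424634-113435760 and Pparg at chr6:115360951-115490399, all on chromosome 6, Cebpa at chr7:35119293-35121928 and Plin1 at chr7:79720218-79732903 on chromosome 7, Fabp4 at chr3:10204088-10208576, Retn at chr8:3655770-3660110, Cfd at chr10:79890853-79892655, Adipoq at chr16:23146536-23158028 and Plin4 at chr17:56100591-56109803. RefSeq promoter windows (250 bases before to 50 after a start, GRCm38.p6) were found for 9 of the 10 genes, in 12 windows, and not for Fabp4. Both strands were searched for 3 motifs: the C/EBP-like letters TTNNGCAA, the nuclear receptor binding letters AGGTCA, and TATAAA. The C/EBP-like letters were found in 4 of the 12 windows, against 10.8% of all 32851 promoter windows, AGGTCA in 2 of 12 against 16.3%, and TATAAA in 2 of 12 against 13.6%. The 250 bases before the start are shown for the 4 windows that hold the C/EBP-like letters and for Adipoq, which holds none of the 3 motifs. Lep and Plin1 both hold the letters, although Plin1 followed the other adipocyte genes from mouse to mouse and Lep did not. Capitals mark the motif, and each sequence runs 5′ to 3′ on the strand of the gene.
Lep, chr6:29059971-29060220, plus strand: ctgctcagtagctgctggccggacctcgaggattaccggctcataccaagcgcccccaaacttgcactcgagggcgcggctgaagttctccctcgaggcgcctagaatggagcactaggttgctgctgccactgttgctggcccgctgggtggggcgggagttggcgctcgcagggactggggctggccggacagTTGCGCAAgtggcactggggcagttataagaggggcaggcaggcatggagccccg
Plin1, chr7:79732777-79733026, minus strand: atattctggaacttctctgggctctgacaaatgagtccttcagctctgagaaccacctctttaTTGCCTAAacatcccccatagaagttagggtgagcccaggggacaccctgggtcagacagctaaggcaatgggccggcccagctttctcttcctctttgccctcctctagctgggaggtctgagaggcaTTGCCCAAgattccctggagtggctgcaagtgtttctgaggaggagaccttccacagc
Cidec, chr6:113434765-113435014, minus strand: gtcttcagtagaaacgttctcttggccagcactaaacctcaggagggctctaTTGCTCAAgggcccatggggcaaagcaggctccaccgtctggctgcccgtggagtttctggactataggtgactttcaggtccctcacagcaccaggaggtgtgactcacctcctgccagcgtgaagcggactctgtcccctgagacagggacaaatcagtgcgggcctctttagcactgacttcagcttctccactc
Pparg, most downstream of 3 starts, chr6:115421816-115422065, plus strand: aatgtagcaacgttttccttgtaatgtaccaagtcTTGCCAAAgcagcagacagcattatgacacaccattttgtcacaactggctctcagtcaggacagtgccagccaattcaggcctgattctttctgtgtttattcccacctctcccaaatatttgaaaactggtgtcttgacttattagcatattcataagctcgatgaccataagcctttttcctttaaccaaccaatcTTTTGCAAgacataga
Adipoq, chr16:23146286-23146535, plus strand: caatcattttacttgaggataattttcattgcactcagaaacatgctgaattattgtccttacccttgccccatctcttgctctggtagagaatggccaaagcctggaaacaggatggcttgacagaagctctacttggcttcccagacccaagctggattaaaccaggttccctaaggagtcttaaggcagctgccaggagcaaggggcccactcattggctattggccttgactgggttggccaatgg
Counted from the start of transcription, the first base of the match was at -55 in Lep, -187 and -58 in Plin1, -198 in Cidec, and -215 and -16 in Pparg. A match gives the letters only and does not show that a factor binds there.

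Per kilobase of transcript, the order of the 10 genes was nearly the same in the 4 groups. Fabp4 and Cfd were the most abundant at 153 to 455 and 117 to 271 CPM per kb (group means), followed by Plin4 at 66.5 to 85.9 and Adipoq at 25.0 to 56.0. Pparg (2.32 to 6.49 CPM per kb) and Lep (1.38 to 3.34) were the lowest in every group. Between the mice of a group, 31 of the 36 neighbouring pairs in this order overlapped, and the 5 that did not were Cfd above Plin4 in wild-type mice at 3 mo, Plin4 above Adipoq in V338Y mice at 3 mo and wild-type mice at 19 mo, and Retn above Plin1 and Plin1 above Cebpa in wild-type mice at 19 mo. This overlap is across mice, and the order within each mouse was kept more often. In V338Y mice at 19 mo, all 4 had Cfd above Plin4, Adipoq above Retn and Cidec above Plin1. All 4 also had Plin1 above Cebpa, Cebpa above Pparg and Pparg above Lep. Fabp4 was above Cfd in 3 of these 4 mice and Plin4 above Adipoq in 2 of 4. The only change of rank in the group means was between Retn and Cidec. Retn was above at 31.4 against 27.2 CPM per kb in V338Y mice at 19 mo, but in only 2 of the 4 mice. Cidec was above in the other groups, in 4 of 4 mice of each genotype at 3 mo and in 2 of 3 wild-type mice at 19 mo.

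Adipoq encodes adiponectin, the most adipocyte-restricted hormone of the list. At 3 mo it was at 106, 34.5, 45.5 and 75.3 CPM in the wild-type mice and at 66.8, 24.6, 36 and 25.4 in the V338Y mice. At 19 mo it was at 24.7, 33.2 and 38.8 CPM in wild-type and at 77.6, 24, 144 and 44.4 in V338Y mice. Mice of one group thus differed more than the group means did, the groups overlapped at both ages, and V338Y mice 2, 4 and 5 stood above every wild-type mouse at 19 mo. V338Y against wild-type gave a log2 fold change of -0.75 ± 0.38 (SE) at 3 mo and of 1.2 ± 0.54 at 19 mo, with unadjusted p = 0.0739 and 0.0542 (adjusted p = 0.558 and 0.56, edgeR).

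Retn encodes resistin. Its values were 34.9, 9.79, 12.7 and 23.9 CPM in wild-type and 23.2, 5.05, 7.53 and 6.92 in V338Y animals at 3 mo. At 19 mo they were 10.6, 11.7 and 14.8 in wild-type and 47.6, 17.7, 60.7 and 17.1 in V338Y mice. Retn was the one gene of the 10 for which every V338Y mouse was above every wild-type mouse at 19 mo, while 4.51% of all tested genes were separated in that direction. The log2 fold change was 1.56 ± 0.48 at 19 mo (unadjusted p = 0.0104, adjusted p = 0.525) and -0.84 ± 0.49 at 3 mo (adjusted p = 0.616), where 3 of 4 V338Y mice were below all wild-type mice and mouse 1 was not.

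Lep encodes leptin, which is released in proportion to fat mass. Its level was low, at 6.2, 9.79, 11.9 and 4.72 CPM in wild-type and 1.78, 11.6, 1.57 and 3 in V338Y animals at 3 mo. It was at 4.91, 10.5 and 4.05 in wild-type and 13.1, 6.51, 22.1 and 1.8 in V338Y animals at 19 mo. The groups overlapped at both ages, and the V338Y group of 19 mo held both the highest and the lowest Lep value of its age. The log2 fold changes were -0.91 ± 0.56 at 3 mo and 0.75 ± 0.71 at 19 mo, with adjusted p = 0.64 and 0.77 (edgeR). Cfd, whose product adipsin is made mainly by adipocytes, was the adipokine with the most counts, from 109.6 to 397 CPM in wild-type and 43 to 321 in V338Y animals at 3 mo to 65.1 to 181 and 86.6 to 424 at 19 mo. Its groups overlapped at both ages, with log2 fold changes of -0.57 ± 0.53 at 3 mo and 1.25 ± 0.55 at 19 mo (adjusted p = 0.785 and 0.557).

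Pparg, the nuclear receptor that is required to form an adipocyte, was at 16.1, 5.46, 4.71 and 9.07 CPM in wild-type and 5.06, 4.29, 3.81 and 3.23 in V338Y animals at 3 mo. At 19 mo it was at 5.41, 4.67 and 7.03 in wild-type and 12.4, 6.57, 15.4 and 11.5 in V338Y mice. At 3 mo, 3 of 4 V338Y mice were below every wild-type mouse, and at 19 mo 3 of 4 were above every wild-type mouse. It had the smallest p of the 10 genes at both ages, with log2 fold changes of -1.06 ± 0.35 (unadjusted p = 0.0121, adjusted p = 0.422) and 1.03 ± 0.29 (unadjusted p = 0.00679, adjusted p = 0.511). Cebpa, its partner in terminal adipocyte differentiation, was at 26.9, 9.37, 12.1 and 17.7 CPM in wild-type and 13.3, 5.53, 7.94 and 5.99 in V338Y animals at 3 mo. It was at 6.9, 9.48 and 12.4 in wild-type and 21, 10.5, 41.1 and 19.8 in V338Y animals at 19 mo, where again mouse 3 was the only V338Y mouse within the wild-type range. Its log2 fold changes were -0.95 ± 0.35 (unadjusted p = 0.0189) and 1.30 ± 0.43 (unadjusted p = 0.0159), with adjusted p = 0.439 and 0.534. With the mouse number as a block, Pparg and Cebpa passed at 19 mo, with log2 fold changes of 1.23 (adjusted p = 0.0496) and 1.5 (adjusted p = 0.0497). V338Y mouse 3 has no same-numbered partner and so adds nothing to that contrast. Leaving it out without a block gave 1.24 (adjusted p = 0.143) and 1.55 (adjusted p = 0.208), so neither gene passed, and 5 of all genes did against 110 with the block.

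Fabp4, which carries fatty acids in the cytosol, was at 809, 188, 253 and 380 CPM in wild-type and 285, 187, 188 and 142 in V338Y animals at 3 mo. It was at 87, 143 and 181 in wild-type and 262, 88.8, 518 and 267 in V338Y animals at 19 mo. The highest value of all mice was that of wild-type mouse 1 at 3 mo, and the groups overlapped at both ages. The log2 fold changes were -1.02 ± 0.39 at 3 mo (unadjusted p = 0.0245) and 1.09 ± 0.52 at 19 mo (unadjusted p = 0.0682), with adjusted p = 0.462 and 0.57.

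Plin1 coats the adipocyte droplet and gates lipolysis. It was at 51, 10.7, 14.5 and 26 CPM in wild-type and 17.6, 6.77, 7.12 and 9.91 in V338Y animals at 3 mo, and at 13.5, 17.6 and 20.9 and 41.6, 18.6, 82.7 and 29.2 at 19 mo. At each age all V338Y mice but 1 lay outside the wild-type range, below it at 3 mo and above it at 19 mo. The log2 fold changes were -1.25 ± 0.47 (unadjusted p = 0.0216) and 1.35 ± 0.47 (unadjusted p = 0.0198), with adjusted p = 0.449 and 0.537. Cidec, which fuses small droplets into a large one, ranged over 25.3 to 114 CPM in wild-type and 15.6 to 73.2 in V338Y animals at 3 mo, and over 10.3 to 35.2 and 16.4 to 101 at 19 mo. Its groups overlapped at both ages, with log2 fold changes of -0.81 ± 0.52 and 1.10 ± 0.62 (adjusted p = 0.659 and 0.617).

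Plin4 coats small droplets and was apart from the other 9 genes. It was at 504, 535, 555 and 384 CPM in wild-type and 298, 569.7, 539.9 and 339 in V338Y animals at 3 mo. At 19 mo it was at 299, 495 and 672 in wild-type and 212, 267, 572 and 481 in V338Y mice, so the groups overlapped. Its log2 fold change was negative at both ages, at -0.18 ± 0.20 and -0.32 ± 0.39 (adjusted p = 0.829 and 0.828). In the annotation Plin4 overlaps Hdgfl2, and reads in the shared stretch could be assigned to either gene.

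**Figure D1:**
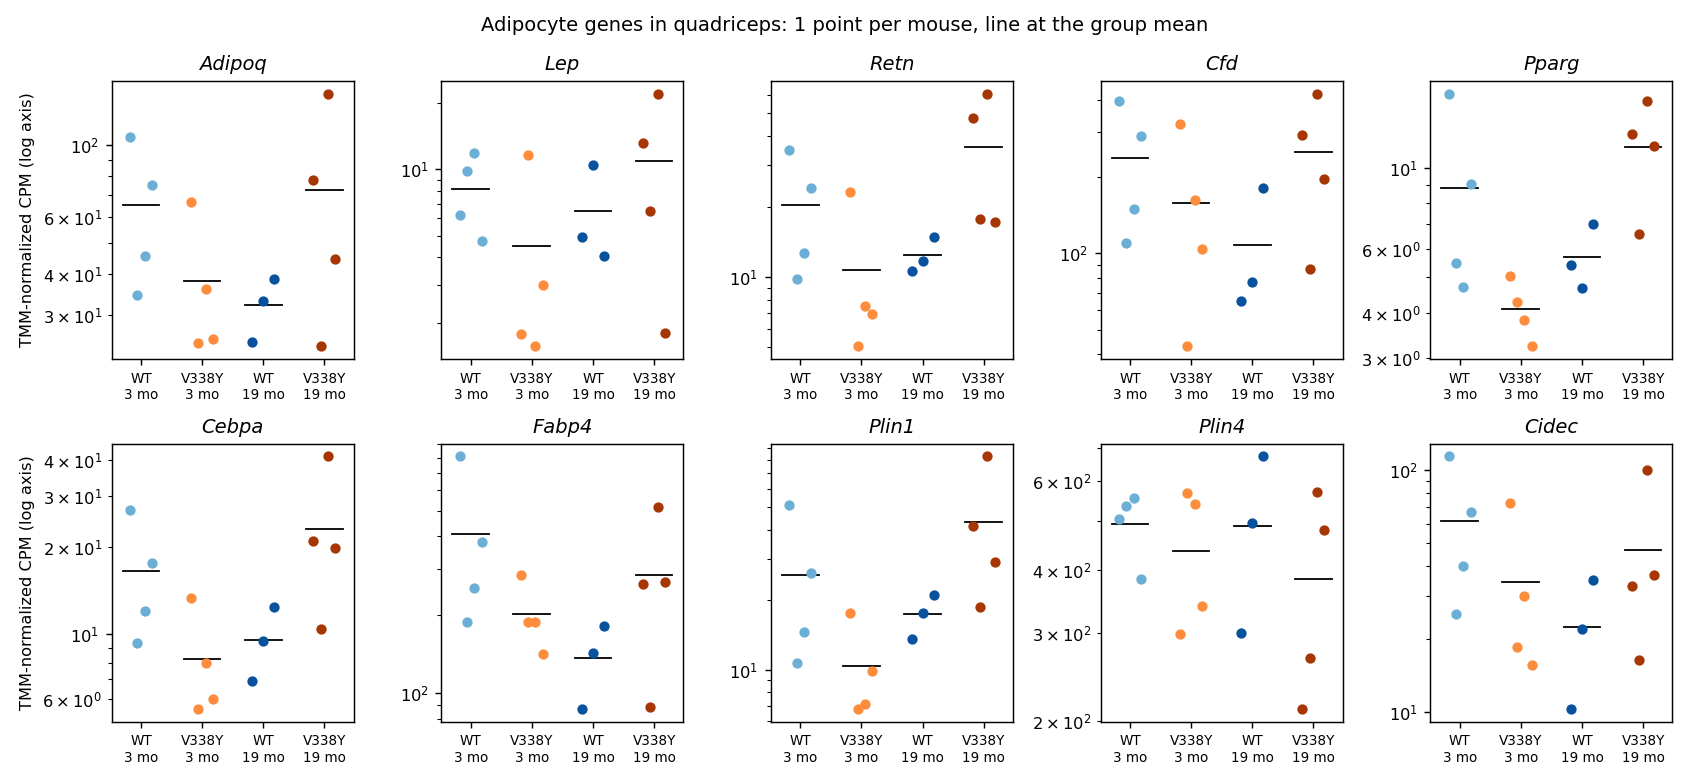
TMM-normalized CPM (log axis) of the 10 adipocyte genes in each mouse, by genotype and age. Points are mice and black lines group means. In 9 genes, Plin4 being the exception, the mean of V338Y mice is below that of wild-type mice at 3 mo and above it at 19 mo, while single mice of the groups overlap.

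Across the list, V338Y mice at 19 mo had positive log2 fold changes for 9 of 10 genes, with a median of 1.15 against 0.01 over the 13833 genes tested. None passed an adjusted p of 0.05 with edgeR or with DESeq2, as 6 of all tested genes did with edgeR (0.0434%). 4 genes (Cebpa, Plin1, Pparg and Retn) had an unadjusted p under 0.05 and a positive change, while 6.17% of all genes did. Mouse numbers 2, 4 and 5 occur in both groups, and the labels do not say whether they mark pairs. Same-numbered mice deviated together (r = 0.132 to 0.4), but the highest r, 0.467, was that of V338Y mouse 3 and wild-type mouse 2. A fit with the number as a block called 2 of the 10 (Pparg and Cebpa, both higher) and 0.795% of all genes. The number of genes with an unadjusted p under 0.05 was 8 without V338Y mouse 3, 7 without V338Y mouse 5, the library with neutrophil transcripts, and 2 without wild-type mouse 2. With a mouse left out, 0 of the 10 passed an adjusted p of 0.05, and 2 to 7 of all genes did. The share of all genes at the unadjusted threshold is not given for those fits. The sign of none of the 10 changed with any mouse left out.

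At 3 mo the direction was the opposite, with negative log2 fold changes for 10 of 10 genes and a median of -0.88 (all 13333 tested genes -0.0026). None passed an adjusted p of 0.05 with edgeR or DESeq2, and 0.075% of all genes did with edgeR. 4 genes (Cebpa, Fabp4, Plin1 and Pparg) had an unadjusted p under 0.05, while 4.67% of all genes had one and were lower in V338Y mice. For 0 of the 10 was every V338Y mouse below every wild-type mouse, which held for 2.24% of all genes. This count leaned on single mice: the count of genes with an unadjusted p under 0.05 was 1 without wild-type mouse 1, which carried the brown adipocyte transcripts, 2 without V338Y mouse 2 or without V338Y mouse 3, and 8 without V338Y mouse 1. All 10 changes stayed negative in each of these fits. With a mouse left out, 0 of the 10 passed an adjusted p of 0.05, and 3 to 14 of all genes did. The share of all genes at the unadjusted threshold is not given for those fits either. Of the 6 brown adipocyte genes, 0 passed at 3 mo and 5 had a negative fold change. V338Y mice were lower in Ucp1, from 1.39 to 328 to 0 to 4.25 CPM (adjusted p = 0.375), and in Cidea, from 1.35 to 68.9 to 0.576 to 8.45 (adjusted p = 0.473). Cox8b, a muscle and brown fat subunit of cytochrome c oxidase, went the other way, at 228 to 299.7 CPM in wild-type and 272 to 326 in V338Y mice (log2 fold change 0.17 ± 0.09, adjusted p = 0.575). Their part in the lower adipocyte transcripts was not tested beyond leaving out that mouse.

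The genotype effect was compared between the ages by the interaction term of a fit of all 15 mice. It was positive for 9 of the 10 genes (more positive at 19 mo), with a median of 2.0 on the log2 scale against -0.01 over 14128 genes. With edgeR 0 of all genes (0%) passed an adjusted p of 0.05, the 10 included. 6 of the 10, Pparg, Cebpa, Plin1, Retn, Fabp4 and Adipoq, had an unadjusted p under 0.05 and a positive term, as did 5.06% of all genes (715 positive, and 646 more negative). The term was 2.07 ± 0.51 for Pparg (unadjusted p = 0.000983, adjusted p = 0.364), 2.23 ± 0.60 for Cebpa (unadjusted p = 0.00214) and 2.58 ± 0.74 for Plin1 (unadjusted p = 0.00331). DESeq2 called 26 genes for the same term, Pparg and Cebpa among them (adjusted p = 0.042 and 0.0486). Lep and Plin4 had terms of 1.62 ± 1.0 and -0.17 ± 0.46. Since the younger mice were male and the older female, the term compares these ages and sexes together.

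**Figure D2:**
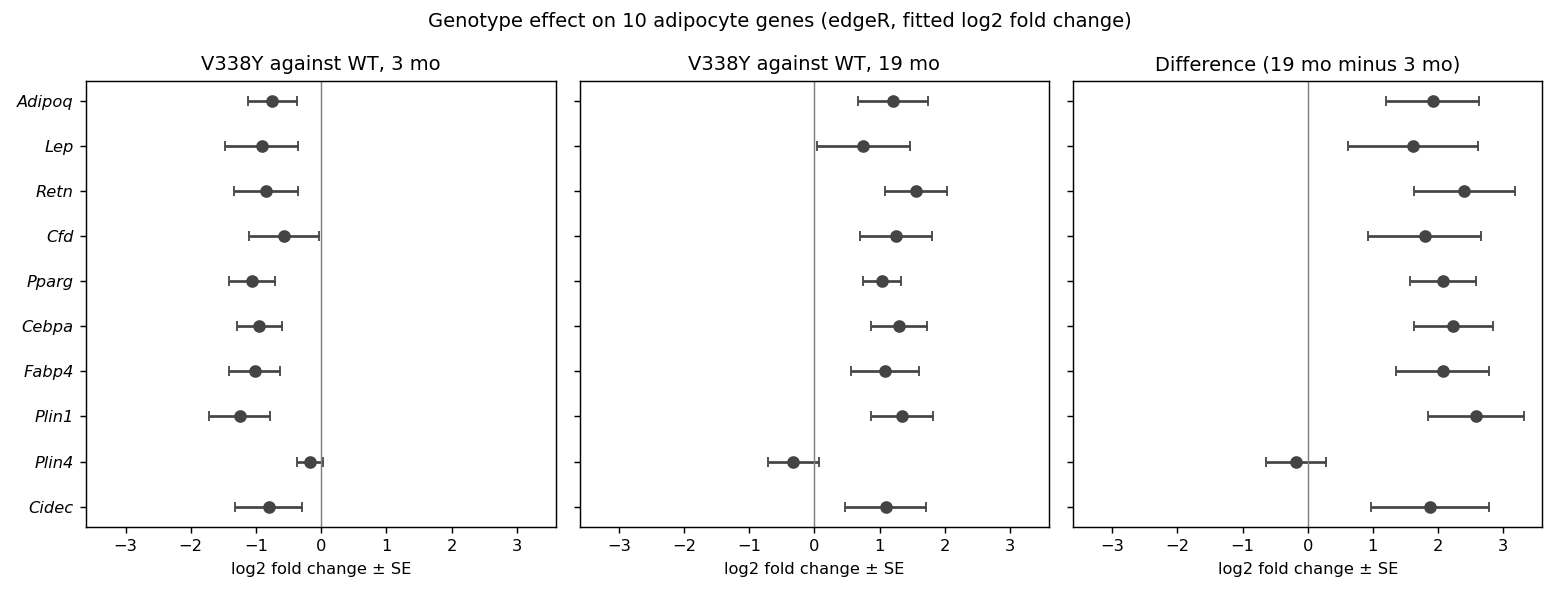
Fitted log2 fold change (V338Y against wild-type, edgeR) of each of the 10 genes at 3 mo and at 19 mo, and their difference from the interaction term, with bars of 1 SE. Values lie left of 0 for 10 genes at 3 mo and right of 0 for 9 genes at 19 mo, with Plin4 near 0 in all 3 panels.

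Between the ages, 9 of the 10 genes had fold changes of opposite sign in the 2 genotypes, and Plin4 a negative one in both. In wild-type mice all 10 had a negative log2 fold change from 3 to 19 mo (median -0.74), and 2 fell past an adjusted p of 0.05: Fabp4 (log2 fold change -1.57 ± 0.48, adjusted p = 0.0296) and Adipoq (-1.01 ± 0.35, adjusted p = 0.0482). As 17.8% of all tested genes fell, 2 of 10 is near the background. Fabp4 was also the one gene with every 19 mo mouse below every 3 mo mouse, as were 21.7% of all genes. Both calls were lost without wild-type mouse 2 or 4 of 19 mo or mouse 4 of 3 mo. That of Adipoq was also lost without mouse 5 of 19 mo (adjusted p = 0.0568), without mouse 1 of 3 mo (0.0944), in a fit of all 15 mice (0.149) and with DESeq2 (0.0597), which called Cebpa in its place. Without mouse 5 of 19 mo Cidec and Cfd were called, and 5 genes were called without mouse 2 of 3 mo. In V338Y mice 9 of 10 had a positive log2 fold change (median 1.12), and 4 rose: Plin1 (2.05 ± 0.47, adjusted p = 0.0061), Pparg (1.47 ± 0.26, adjusted p = 0.00156), Cebpa (1.47 ± 0.41, adjusted p = 0.0152) and Retn (1.72 ± 0.55, adjusted p = 0.0284). Of all genes, 24.4% rose. Pparg and Plin1 had every 19 mo mouse above every 3 mo mouse, as had 20.3% of all genes. The call of Retn was lost without V338Y mouse 2 or 4 of 19 mo or mouse 2, 3 or 4 of 3 mo (adjusted p = 0.0675 to 0.0809). Adipoq (0.93 ± 0.51) and Fabp4 (0.52 ± 0.43), which fell in wild-type mice, did not pass in V338Y mice (adjusted p = 0.159 and 0.339), but both did, as higher, without V338Y mouse 3 of 19 mo (adjusted p = 0.0471 and 0.0465), and Lep did without V338Y mouse 2 of 3 mo (adjusted p = 0.0355). The 2 age comparisons share no mice, but each sets female against male mice.

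In bulk RNA, fewer adipocytes in a sample and less of a transcript per adipocyte cannot be told apart. As a measure of adipocyte content that uses none of the 10 genes, the mean log2(CPM + 0.5) of 9 others was taken: Lipe, Acvr1c, Aqp7, Pck1, Lgals12, Trarg1, Adig, Mrap and Adrb3. This mean is itself RNA of adipocyte genes and not a count of cells. A change per cell that these genes shared with the 10 would be subtracted with it. Below, relative to content means relative to this index. This content index was 3.63 ± 0.78 (SD, n = 4) in wild-type and 2.72 ± 0.42 (n = 4) in V338Y mice at 3 mo, and 2.87 ± 0.41 (n = 3) and 3.70 ± 0.94 (n = 4) at 19 mo. It differed by genotype by 0.83 at 19 mo and by -0.91 at 3 mo, on the log2 scale, with overlapping mice. Its genes went the same way as the 10, with positive fold changes for 9 of 9 at 19 mo (median 1.30) and 0 of 9 at 3 mo (median -1.09). Among them, Adrb3, the β3-adrenergic receptor of fat, was at 2.36, 2.07 and 4.72 CPM in wild-type and 12.9, 3.62, 34 and 9.64 in V338Y animals at 19 mo, and Lipe, the hormone-sensitive lipase, at 18.3, 30.1 and 44.9 and 51, 19.5, 102 and 56.2. Neither passed (adjusted p = 0.525 and 0.612).

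After the group means were removed, 8 of the 10 genes followed the content index across the 15 mice. Pearson's r was 0.981 for Cebpa, 0.978 for Fabp4, 0.958 for Adipoq and 0.954 for Plin1, and 0.854 to 0.934 for Retn, Cfd, Pparg and Cidec. It was 0.264 for Plin4 and 0.0153 for Lep. The 8 genes correlated with one another at r of 0.72 to 0.978 over 28 pairs, Lep with the 8 at -0.289 to 0.0826 and Plin4 with the 8 at -0.185 to 0.354. The split of Lep and Plin4 from the 8 was made after seeing these values, and each r is a description over 15 mice whose values share a library and its normalization. Lep was not low in every mouse with a low index: V338Y mouse 2 at 3 mo had the lowest index of all mice, 2.41, and 11.6 CPM of Lep, while V338Y mouse 5 at 19 mo had an index of 3.65 and 1.8 CPM.

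**Figure D3:**
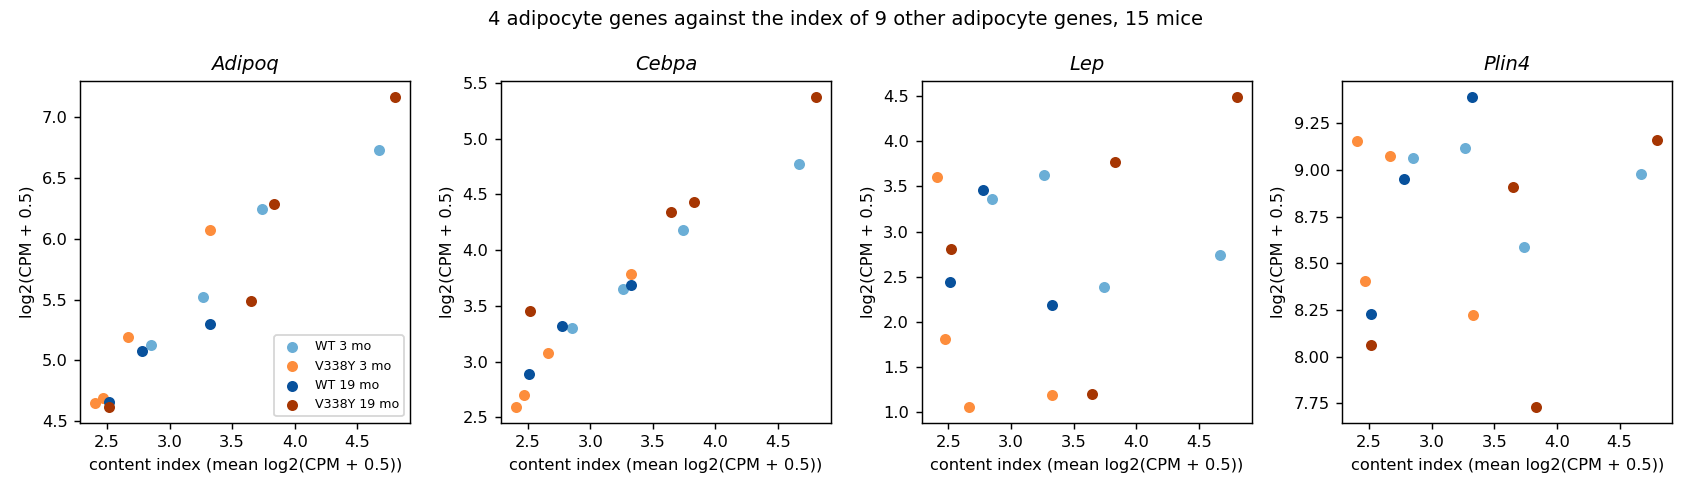
log2(CPM + 0.5) of Adipoq, Cebpa, Lep and Plin4 against the content index of 9 other adipocyte genes, 1 point per mouse, coloured by group. Adipoq and Cebpa rise along the index (r = 0.958 and 0.981 after removing group means), while Lep and Plin4 scatter (r = 0.0153 and 0.264).

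The question which genes differed beyond a shift in the index was then asked by subtracting the index from each gene in each mouse and comparing groups by two-sided exact permutation tests. There were 40 tests, their p-values were not adjusted for that number, and the smallest possible p was 0.0286. At 19 mo, 0 of 10 relative levels differed between genotypes at p under 0.05. The largest difference was that of Plin4, at 5.71, 6.18 and 6.07 in wild-type and 3.90, 5.55, 4.36 and 5.26 in V338Y mice, a difference of -1.22 with no overlap (exact permutation p = 0.0571). Plin4 did not follow the index from mouse to mouse, and the index itself differed by 0.83, so most of this difference is that of the index subtracted and not of Plin4, whose own log2 fold change was -0.32 (adjusted p = 0.828). Cebpa was the only other gene without overlap, at 0.37, 0.54 and 0.36 in wild-type and 0.60, 0.94, 0.57 and 0.70 in V338Y mice, a difference of 0.27 (exact permutation p = 0.0571).

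None of the 4 adipokines was separated between genotypes at 19 mo once the index was subtracted. The relative level of Retn was 0.96, 0.83 and 0.61 in wild-type and 1.76, 1.67, 1.13 and 0.49 in V338Y mice, a difference of 0.46 (exact permutation p = 0.257), with V338Y mice 2, 3 and 4 above all wild-type mice and mouse 5 below them. Cfd differed by 0.31 (exact permutation p = 0.2), Adipoq by 0.05 (exact permutation p = 0.8) and Lep by -0.45 (exact permutation p = 0.686). Lep, like Plin4, did not follow the index, so its value includes the difference of the index. The 0.05 of Adipoq is a difference of mean log2(CPM + 0.5) after subtracting the index, which itself differed by 0.83. Its edgeR log2 fold change of 1.2 comes from fitted group means and is not the same measure. At 3 mo, 0 of 10 differed, and the smallest exact permutation p was 0.229, for Plin4 (0.69). The relative level of Retn differed by -0.06 at 3 mo with all mice (exact permutation p = 0.743). With each mouse left out in turn, this difference ran from -0.30 to 0.087. The -0.30 was that without V338Y mouse 1 (exact permutation p = 0.0286). That mouse had the highest Retn of its group, and leaving it out lowers the group by design, so no conclusion is drawn from that fit.

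Between the ages, Fabp4 was lower relative to content in both genotypes. In wild-type mice its relative level was 4.99, 4.71, 4.72 and 4.83 at 3 mo and 3.94, 4.39 and 4.18 at 19 mo, a difference of -0.65 (exact permutation p = 0.0286, the smallest possible). In V338Y mice it was 4.83, 5.15, 4.89 and 4.69 and 4.21, 3.96, 4.22 and 4.41, a difference of -0.69 (exact permutation p = 0.0286). Cidec was also lower relative to content, with a difference of -0.62 in wild-type mice, without overlap (exact permutation p = 0.0571). In V338Y mice its difference was -0.57 (exact permutation p = 0.2). Plin1 went the other way. It was 0.85, 0.45, 0.26 and 0.91 at 3 mo and 1.56, 1.74, 1.58 and 1.24 at 19 mo in V338Y mice (0.91, exact permutation p = 0.0286), and it was also higher in wild-type mice, by 0.44, without overlap but with an exact permutation p of 0.0571. Cebpa was higher relative to content at 19 mo in V338Y mice (0.38, exact permutation p = 0.0286) and differed by 0.08 in wild-type mice (exact permutation p = 0.6). Without V338Y mouse 3 of 19 mo, the difference of Cebpa in V338Y mice was 0.30 and its exact permutation p was 0.0571. No adipokine passed in either genotype, the largest difference being that of Retn in V338Y mice (0.75, exact permutation p = 0.114). Endothelium also makes Fabp4. The 7 endothelial markers summed to 213 to 253 CPM at 3 mo and 279 to 470 at 19 mo in wild-type mice. In V338Y mice they summed to 205 to 228 and 281 to 466 CPM. Before the index was subtracted, the log2 fold change of Fabp4 with age was -1.57 ± 0.48 in wild-type mice. In V338Y mice it was 0.52 ± 0.43. Of the 7, Flt1, Kdr and Cdh5 rose in both genotypes and Pecam1 in V338Y mice, while Tek, Emcn and Gpihbp1 did not pass, and Gpihbp1, a capillary protein that holds lipoprotein lipase, had negative log2 fold changes (-0.31 ± 0.25 in wild-type and -0.39 ± 0.20 in V338Y mice). Their part in the level of Fabp4 was not tested. These results hold for the younger males and older females together.

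**Figure D4:**
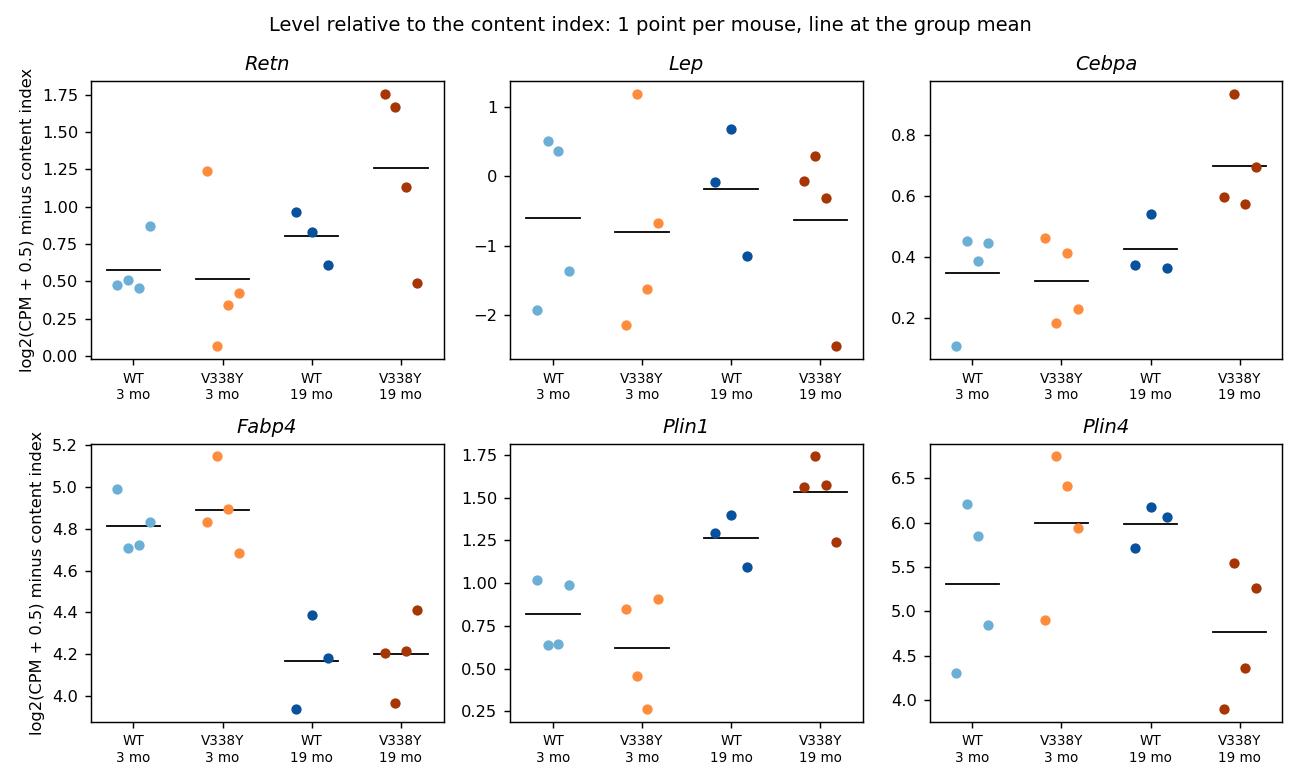
Level of Retn, Lep, Cebpa, Fabp4, Plin1 and Plin4 relative to adipocyte content (log2(CPM + 0.5) minus the content index) in each mouse, with lines at group means. Fabp4 is lower and Plin1 higher at 19 mo, and Plin4 of V338Y mice lies below that of wild-type mice at 19 mo (mean 4.77 against 5.99).

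The same question was put to a fit of all genes in which the content index was a covariate. Of the 10 genes 0 passed for genotype at 19 mo, while 0.0354% of all genes did (edgeR). Cebpa alone had an unadjusted p under 0.05 with a positive change, as did 4.32% of all genes, with a log2 fold change of 0.39 ± 0.12 (unadjusted p = 0.0072, adjusted p = 0.509). The fit of the 19 mo mice alone without the covariate and this fit differ in their mice as well as in the covariate. Their log2 fold changes were 1.2 and -0.000773 for Adipoq, 1.09 and -0.06 for Fabp4, 1.25 and 0.11 for Cfd and 1.35 and 0.23 for Plin1. Retn kept 0.55 ± 0.33 (unadjusted p = 0.122) and Pparg 0.39 ± 0.20 (unadjusted p = 0.0721). Lep stood at 0.59 ± 0.88 and Plin4 at -0.54 ± 0.37, so that neither was distinguished from 0 at this number of mice.

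Outside the lists written for these genes, the 10 genes whose log2 levels most resembled the mean of the 10 adipocyte genes, by Pearson's r over 15 mice after removing group means, were Vnn3 (r = 0.948), Mgst1 (0.946), Ctcflos (0.944), Ces1f (0.937), Nat8l (0.935), B3galt2 (0.928), ENSMUSG00000017914, which has no symbol in the annotation used, at 0.927, Pde3b (0.926), Arxes2 (0.925) and Sik2 (0.922). They were chosen by that r from 13666 genes, so the values describe the choice.

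Other genes of the pathway were read from lists. Of 12 genes of lipid droplets and lipolysis, 11 were tested at 19 mo, 0 passed for genotype, and 10 were positive (median 0.40). The largest log2 fold change among the 4 with the smallest p was that of Plin2, which coats droplets in most cells (0.77 ± 0.30, adjusted p = 0.542), and the lipodystrophy gene Bscl2 (seipin) had 0.46 ± 0.18 (adjusted p = 0.542). With age in V338Y mice, the lipases Mgll (0.81 ± 0.26, adjusted p = 0.0264) and Pnpla2 (1.0 ± 0.37, adjusted p = 0.0481) rose, and so did G0s2, an inhibitor of Pnpla2 (1.30 ± 0.34, adjusted p = 0.0113). These 3 of 12 are near the 24.4% of all genes that rose, and 1 of the 12 fell. Of 14 regulators of adipogenesis, 0 passed for genotype at 19 mo (median 0.05). Pparg and Cebpa were not part of that list. Mlxipl, the carbohydrate-response factor, rose with age in wild-type (0.92 ± 0.11, adjusted p = 0.000581) and V338Y mice (1.38 ± 0.15, adjusted p = 0.000168).

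Of 14 further adipokines, 12 were tested, and 0 passed for genotype at 19 mo. In 3 (Rbp4, Metrnl and Apln) every V338Y mouse was above every wild-type mouse, as in 4.51% of all genes. In 1 (Nampt) every V338Y mouse was below, as in 730 of 13833 genes. Metrnl had a log2 fold change of 0.41 ± 0.14 (adjusted p = 0.537), and 0.45 ± 0.20 with the covariate (unadjusted p = 0.0389, adjusted p = 0.557, edgeR). Apln had 0.96 ± 0.38 (adjusted p = 0.542), at 4 to 25 counts. Rbp4, the retinol carrier that adipocytes and liver release, was at 2.8, 3.19 and 3.14 CPM in wild-type and 12.6, 5.83, 14.8 and 6.75 in V338Y animals at 19 mo, without overlap. Its log2 fold change was 1.73 ± 0.36 (unadjusted p = 0.00111, adjusted p = 0.395), and 1.27 ± 0.34 with the content index as covariate (unadjusted p = 0.00218, adjusted p = 0.453). Its interaction term was 2.60 ± 0.49 (adjusted p = 0.192). With age it fell in wild-type mice (-1.28 ± 0.30, adjusted p = 0.00996) and rose in V338Y mice (1.34 ± 0.34, adjusted p = 0.0104). Lcn2, which neutrophils also make, was at 1.3, 2.28, 2.91 and 31.4 CPM in V338Y mice at 19 mo, where the high value is that of mouse 5, the library with neutrophil transcripts, and at 0.497, 0.741 and 1.32 in wild-type mice. Nampt, the most abundant of the list, fell with age in both genotypes (log2 fold change -0.78 ± 0.10 and -0.85 ± 0.12, adjusted p = 0.000873 and 0.000477). Of 8 adipokine receptors, 0 passed for genotype at either age. Adipor1, the main adiponectin receptor of muscle, was at 195, 180.2 and 167 CPM in wild-type and 133, 165, 149 and 143 in V338Y animals at 19 mo (-0.27 ± 0.12, adjusted p = 0.557), and it fell with age in wild-type (-0.37 ± 0.09, adjusted p = 0.0115) and V338Y mice (-0.63 ± 0.10, adjusted p = 0.000934).

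Markers of other cells were read beside these results. For genotype at 19 mo, 0 of 7 adipocyte progenitor, 7 endothelial, 6 macrophage and 8 myofiber markers passed. The progenitor markers summed to 731 to 1119 CPM in wild-type and 570 to 1017 in V338Y mice, with the lowest value in V338Y mouse 5. The macrophage markers summed to 173 to 202 and 158 to 237 CPM, and the endothelial markers to 279 to 470 and 281 to 466. The brown adipocyte gene Ucp1 was at 0 counts in every wild-type mouse of 19 mo and at most 0.321 CPM in V338Y mice of that age. Of the other brown adipocyte genes, Cidea was at 0.0741 to 0.579 CPM in wild-type and 0 to 5.66 in V338Y mice, the highest being mouse 5. Dio2, the deiodinase that activates thyroid hormone, had every V338Y mouse (2.81 to 9.02 CPM) above every wild-type mouse (1.8 to 2.67), as had 4.51% of all genes. Its log2 fold change was 1.27 ± 0.40 (unadjusted p = 0.012, adjusted p = 0.525). Of the 6 brown adipocyte genes, 3 passed the filter and were tested at 19 mo, and 1 was positive. Ucp1 and Cidea were not among the tested genes. Cox8b and Ppargc1a had negative log2 fold changes, -0.19 ± 0.13 and -0.02 ± 0.24 (adjusted p = 0.67 and 0.991, edgeR). The myofiber markers summed to 85260 to 128500 CPM in wild-type and 68610 to 111800 in V338Y animals at 19 mo, and their part in the adipocyte transcripts was not tested. Without V338Y mouse 5 of 19 mo, 9 of the 10 adipocyte genes were still positive for genotype, and 7 had an unadjusted p under 0.05. None passed an adjusted p of 0.05 in that fit, for which the share of all genes at the unadjusted threshold is not given.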

How the data were processed

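RNA from quadriceps muscle of 15 mice was sequenced single-end on stranded libraries. The methods name an mRNA kit and also describe ribosomal RNA depletion, so how RNA was selected is not settled here. The authors deposited one table per mouse of RSEM expected counts per gene, whole-numbered and scaled neither to library size nor to transcript length. The submitters' processing notes name bcl2fastq 1.8.4, CASAVA 1.8, STAR 2.4.2a and GRCm38. Symbols were found for 37607 of 39179 gene IDs in an annotation of GRCm38, and no row lacked a gene. Counts were used as deposited, so that reads shared by similar genes were split by RSEM.

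A gene was tested where 50% or more of the mice of a compared group had 10 counts or more. Groups from the labels were compared with edgeR 4.0.16 (R 4.3.3), TMM normalization and the quasi-likelihood test, and p-values were adjusted by Benjamini-Hochberg over all tested genes with a threshold of 0.05. The interaction term and the fit with the content index as covariate came from all 15 mice. The content index was the mean log2(CPM + 0.5) of 9 genes, and relative levels were tested by exact two-sided permutation over mice. DESeq2 1.42.0 served as an alternative. The code was tested on simulated data. The 10 genes and the lists were chosen with earlier results of these data known, so the fold changes of the list are a description and not independent support.

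At 19 mo, mouse numbers occur in both genotypes, and the labels do not say that a shared number marks a pair. The 3 same-numbered pairs deviated from their group means together (r = 0.132 to 0.4). The 9 pairs with different numbers gave r of -0.407 to 0.467, 1 of them over 0.1, so pairing is not settled. The fit with the number as a block is given there as an alternative. V338Y mouse 3 has no same-numbered partner. At 3 mo the 4 pairs gave r of -0.162 to 0.141 and were not taken as paired.

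Named genes were the 10, Mrps5, the sex-linked check genes, up to 4 genes of the reference list, from each other list up to 4 with the smallest p for genotype at 19 mo and up to 2 with the highest CPM, and 10 most correlated genes outside the lists. Ucp1, Cidea, G0s2 and Cdh5 were named after their values were seen. Other settings were RLE and upper-quartile factors, DESeq2, the likelihood ratio test, no filter, filterByExpr, a replicate block, a fit of all mice, other indices and pseudocounts, and each mouse left out.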

Additional observations from a re-analysis of the deposited data

Results flagged for a closer look

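Within groups of 4 mice, a value was looked at again where the gap between the highest or lowest mouse and the next took up most of the group's range (Dixon's 95% limit). Of 60 groups tested 5 had such a mouse, and chance gives about 1 in 20. Lep was at 11.6 CPM in V338Y mouse 2 at 3 mo, against 1.57 to 3.00 in the other 3 mice. Retn was at 23.2 CPM in V338Y mouse 1 at 3 mo, against 5.05 to 7.53. Relative to the content index, wild-type mouse 4 at 3 mo stood above its group for Retn (0.87 against 0.45 to 0.51) and for Cfd (4.44 against 3.93 to 3.96). V338Y mouse 2 at 19 mo stood above its group for Cfd relative to the index (4.36 against 3.93 to 3.97). These are values of single mice, and no test was made of what sets them apart.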

How the results depend on the processing

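Of the values recomputed with another setting and all mice, 765 kept their direction and their side of the threshold (or, for counts, stayed within 1.5 times), 30 reversed, 36 moved, 26 came to pass the threshold and 6 no longer passed it. The cause of these differences was not tested. With the mouse number as a block, 2 of the 10 genes passed for genotype at 19 mo, against 0 without it. The labels give the number only, and whether it marks pairs is not settled at 19 mo or elsewhere. In the other comparisons the block gave 1 gene at 3 mo (Plin1, log2 fold change -1.19), 4 with age in wild-type mice (Cidec and Cfd added) and 2 for the interaction (Pparg and Plin1). Of all tested genes, the block called 14 of 13333 at 3 mo, 2229 of 13657 with age in wild-type mice and 28 of 14128 for the interaction. Among single values, the sign turned under the block for Lep with age in wild-type mice (0.042), Lep with the covariate (-0.46), and the relative levels of Pparg for genotype at 19 mo (-0.082) and Cfd with age in V338Y mice (0.087). With age in V338Y mice Lep also passed (1.54), which made 5 of the 10, while 5505 of 13868 tested genes passed with the block. The block left 0 relative levels past the threshold with age in wild-type and 0 in V338Y mice, against 1 and 3, but sign-flip tests of 2 to 4 pairs reach no p below 0.5, 0.25 and 0.125. It changed no other call of the 10 genes. At 19 mo the block takes V338Y mouse 3, which has no partner, out of the contrast. Of the 10 genes, 8 had an unadjusted p under 0.05 with the block and also 8 without that mouse and no block, against 4. Of all genes, 110 passed an adjusted p of 0.05 with the block and 5 without that mouse, against 6. The share of all genes at the unadjusted threshold is not given for these 2 settings, so the counts of 8 have no background here.

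With age in wild-type mice, 2 genes were called, 5 without a filter, 1 in a fit of all 15 mice and 0 to 5 with a mouse left out. For the interaction, DESeq2 called 2 of the 10 (Pparg and Cebpa) and the likelihood ratio test 1 (Pparg). Of all genes, 6 were called for genotype at 19 mo, against 62 with DESeq2, 72 with the likelihood ratio test, 14 without a filter and 110 with the block. At 3 mo these were 10, against 66, 83, 33 and 14, and for the interaction 0, against 26, 36, 5 and 28. With age in wild-type mice the block gave 2229 in place of 4940. With the covariate 5 genes were called, 10 with the block and 2 in the 7 mice of 19 mo.

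With the covariate, values near 0 turned sign for Cfd with an index of the 10 genes (-0.013), Lep in the 7 mice of 19 mo (-0.054) and Adipoq with RLE factors (0.010). Relative levels with other signs, as log2 differences, were with a pseudocount of 0.1 Fabp4 -0.020 for genotype at 19 mo and Cebpa 0.011 at 3 mo, with a pseudocount of 2 Fabp4 -0.084 and Cidec -0.10 at 3 mo, and with the other 9 of the 10 genes as index Pparg -0.037 and Cidec -0.042 at 3 mo. Plin1 alone as index gave Adipoq -0.22, Pparg -0.19, Fabp4 -0.24 and Cidec -0.19 for genotype at 19 mo, Retn 0.14 and Cebpa 0.18 at 3 mo, Lep -0.016, Retn -0.22, Pparg -0.13 and Cebpa -0.36 with age in wild-type mice and Lep -0.74, Retn -0.17, Pparg -0.56 and Cebpa -0.53 in V338Y mice. Summed CPM as index gave Retn 0.033 and Cebpa 0.070 at 3 mo and Adipoq 0.055 with age in wild-type mice. Relative levels past the threshold with age in wild-type mice numbered 3 with a pseudocount of 0.1, 2 with Plin1 and 3 with summed CPM, with Cidec among them each time. For genotype at 19 mo they numbered 1 with a pseudocount of 2 (Cebpa, 0.31) and 1 with the other 9 genes (Plin1, 0.31).

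Leaving out each mouse in turn turned the sign of some values, whose lowest and highest are given here. They were, for log2 fold changes with age in wild-type mice, Plin4 -0.32 to 0.24 and Plin1 -0.81 to 0.028, in V338Y mice Plin4 -0.44 to 0.026 and Cidec -0.25 to 1.13, and for the interaction Plin4 -0.43 to 0.13. With the covariate they were Adipoq -0.12 to 0.14, Plin1 -0.027 to 0.35, Cfd -0.011 to 0.36 and Fabp4 -0.14 to 0.057. For relative levels they were Adipoq -0.036 to 0.17, Lep -0.93 to 0.15, Pparg -0.082 to 0.29, Fabp4 -0.083 to 0.14 and Cidec -0.21 to 0.25 for genotype at 19 mo, Lep -0.87 to 0.24, Retn -0.30 to 0.087, Cfd -0.089 to 0.57, Pparg -0.10 to 0.14, Cebpa -0.11 to 0.021, Fabp4 -0.011 to 0.14 and Cidec -0.22 to 0.23 at 3 mo, Lep -0.017 to 0.91 and Cebpa -0.000872 to 0.11 with age in wild-type and Lep -0.27 to 0.84 and Cfd -0.60 to 0.061 in V338Y mice. Counts of relative levels past the threshold with a mouse left out were 0 to 1 at 3 mo and 0 in each case with age in wild-type mice, where 3 against 3 or 2 against 4 mice reach no p under 0.1 or 0.0667. Lep, the lowest of the 10 genes per kilobase, also had the largest standard errors for genotype, 0.56 at 3 mo and 0.71 at 19 mo.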
